A study of Homo sapiens with 52 samples.

Results

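The genes described here are 49 genes of mitosis, the spindle and the kinetochore, chosen by gene symbol. They are 49 of the 62696 genes counted in the tumour cell libraries and of the 61209 counted in the macrophage libraries. The study asked how Wnt signalling and midkine (MDK) signalling bear on the immune environment of hepatoblastoma, a liver tumour of childhood. It used the hepatoblastoma lines HepG2 and Huh6, the Wnt inhibitor PKF118-310, the midkine inhibitor iMDK, and macrophages made from the monocytic leukaemia line THP-1.

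Tumour cells were kept for 48 h in medium with an inhibitor or with the empty vehicle, after which polyadenylated RNA was sequenced. Huh6 received vehicle, PKF118-310 at 0.2, 0.3 or 0.4 uM, or iMDK at 5 or 10 uM, with 3 libraries in each group. HepG2 received vehicle, PKF118-310 at 0.2 uM, or iMDK at 5 or 10 uM, with 3 libraries in each group, and PKF118-310 at 0.3 uM in 1 library. The labels give low RNA concentrations as the reason that only 1 library represents that last dose. THP-1 cells were differentiated with 80 ng/ml of the phorbol ester PMA for 48 h and rested for 48 h, so all the macrophage groups share that treatment. They were then kept alone, or HepG2 or Huh6 cells were added directly to them for 24 h of co-culture. The tumour cells were untreated or had been given 5 or 10 uM iMDK for the 24 h before. The macrophages were sorted before RNA isolation, and each of these 7 groups has 3 libraries.

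Each line is a single established line, and the labels do not say whether the 3 libraries of a group came from separate cultures. The p-values therefore measure the spread between these libraries, which may be technical. Libraries held 18.2 to 19.9 M counts in Huh6, 18.3 to 20 M in HepG2 and 12.6 to 16.9 M in the macrophages. Of 23 markers of liver tumour cells, at most 4 had no counts in any tumour library, with VTN, AHSG and RBP4 at 0 in every library of the study. Of 14 macrophage markers, CD68 and C1QA had no counts in any macrophage library, while the list summed to 16500 to 20200 CPM there (CPM, counts per M counts of the library).

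A dividing cell copies its chromosomes, condenses them, and attaches each to the spindle through a protein assembly on the centromere, the kinetochore. The cyclin-dependent kinase CDK1 with its cyclins drives entry into mitosis. The spindle checkpoint holds the anaphase-promoting complex until every kinetochore is attached, and the separated chromosomes are then parted by cytokinesis. Most of these genes are transcribed late in the cell cycle. The factors known for that control are the MuvB complexes, which repress the genes in resting cells with E2F4 and activate them in dividing cells with MYBL2 and FOXM1, through a promoter motif called the CHR. The factor NF-Y binds the CCAAT motif of the same promoters. In bulk RNA, fewer dividing cells and less of a transcript per cell cannot be told apart.

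Of the 49 genes, 47 had enough counts to be tested in each cell type. SMC4, a condensin subunit, had no counts in any library. NUSAP1, a microtubule-binding protein, had 0 to 2 counts per library. PRC1, which bundles the microtubules of the spindle midzone, was tested at a low level, 2.21 to 2.67 CPM in the HepG2 vehicle libraries. In the GENCODE 29 annotation on GRCh38, 62.2% of the exonic bases of NUSAP1 and 57.6% of those of PRC1 lie in another gene on the same strand. For SMC4, 25.6% of the exonic bases lie in the genes IFT80 and TRIM59 when either strand is counted. The part of these overlaps in the counts was not tested, since the strand setting is not given in the sources used here. Of 237 genes of this and the other lists looked up, 21 had no counts in any library of either table, among them CDK2 and TUBA1B, so that a count of 0 in these tables is not read as absence of the transcript.

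Promoters of the genes are shown for the CHR and CCAAT motifs named above. A RefSeq table on GRCh38.p14 with the 250 bases before and the 50 bases after a gene's start held 42 of the 49 genes, and lacked AURKA, TTK, KNL1, TPX2, BIRC5, UBE2C and FOXM1. The CHR was searched as TTTGAA or TTCGAA and the NF-Y motif as CCAAT, both on either strand, where TTTGAA reads TTCAAA and CCAAT reads ATTGG on the other strand. The 6 promoters below hold both motifs, come from 6 different roles, and have the motifs in capitals, with overlapping matches joined. They are the promoters of MKI67 (chromosome surface, chr10:128126374-128126673, minus strand), CCNB2 (mitotic entry, chr15:59104896-59105195, plus strand), CDC20 (anaphase, chr1:43358731-43359030, plus strand), INCENP (chromosomal passenger complex, chr11:62123761-62124060, plus strand), BUB1 (spindle checkpoint, chr2:110678014-110678313, minus strand) and SPC25 (kinetochore, chr2:168890381-168890680, minus strand), each 5′ to 3′ in the direction of the gene.
MKI67: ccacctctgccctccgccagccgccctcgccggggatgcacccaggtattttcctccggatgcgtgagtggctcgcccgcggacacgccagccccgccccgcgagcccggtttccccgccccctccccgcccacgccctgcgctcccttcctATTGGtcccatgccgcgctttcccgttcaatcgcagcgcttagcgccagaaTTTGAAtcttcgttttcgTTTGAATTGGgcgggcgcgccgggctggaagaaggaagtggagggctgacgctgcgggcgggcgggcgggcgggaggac
CCNB2: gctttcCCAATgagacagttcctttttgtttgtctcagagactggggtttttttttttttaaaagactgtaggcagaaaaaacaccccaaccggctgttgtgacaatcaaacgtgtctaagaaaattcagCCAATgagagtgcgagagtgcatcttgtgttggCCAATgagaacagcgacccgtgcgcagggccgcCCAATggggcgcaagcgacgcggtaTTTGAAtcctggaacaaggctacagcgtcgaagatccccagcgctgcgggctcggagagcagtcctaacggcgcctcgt
CDC20: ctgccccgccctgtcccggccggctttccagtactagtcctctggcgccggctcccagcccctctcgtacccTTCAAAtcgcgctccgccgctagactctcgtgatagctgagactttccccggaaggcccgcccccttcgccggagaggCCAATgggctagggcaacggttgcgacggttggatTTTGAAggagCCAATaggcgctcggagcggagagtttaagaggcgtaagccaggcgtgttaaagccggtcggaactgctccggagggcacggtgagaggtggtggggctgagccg
INCENP: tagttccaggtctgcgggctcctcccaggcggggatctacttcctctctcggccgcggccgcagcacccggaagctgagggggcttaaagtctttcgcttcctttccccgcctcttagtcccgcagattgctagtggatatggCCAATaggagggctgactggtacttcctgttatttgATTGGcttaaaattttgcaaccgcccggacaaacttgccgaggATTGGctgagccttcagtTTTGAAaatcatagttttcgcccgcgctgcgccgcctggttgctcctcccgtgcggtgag
BUB1: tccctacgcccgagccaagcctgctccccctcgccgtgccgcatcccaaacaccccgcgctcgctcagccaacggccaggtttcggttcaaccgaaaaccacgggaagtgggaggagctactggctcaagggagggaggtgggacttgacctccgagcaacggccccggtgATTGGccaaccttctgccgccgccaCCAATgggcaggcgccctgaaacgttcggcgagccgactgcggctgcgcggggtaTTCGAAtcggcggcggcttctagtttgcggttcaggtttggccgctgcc
SPC25: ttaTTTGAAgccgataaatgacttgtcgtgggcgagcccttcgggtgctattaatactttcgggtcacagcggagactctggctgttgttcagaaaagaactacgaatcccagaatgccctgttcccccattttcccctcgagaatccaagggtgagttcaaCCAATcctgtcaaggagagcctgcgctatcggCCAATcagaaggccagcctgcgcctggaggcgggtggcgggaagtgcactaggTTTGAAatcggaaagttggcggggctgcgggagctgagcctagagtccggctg

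CCNB2 holds 4 copies of CCAAT, with first bases 244, 120, 87 and 54 bases before the start, followed by TTTGAA at 29 bases before it. INCENP holds 3 copies of CCAAT and a TTTGAA 10 bases before the start, and MKI67 holds 2 copies of each motif. Over the 42 promoters, TTTGAA or TTCGAA was present in 32 (76.2%), against 16.4% of the 35116 promoters of the table. CCAAT was present in 32 (76.2%), against 34.6% of all promoters. At least 2 copies of CCAAT were present in 19 (45.2%), against 10.8%. Both kinds of motif were present in 25 (59.5%), against 6.38% of all promoters. The windows of CDC25C, CENPE and KIF2C held no match of either kind. A match describes the letters of the window and is neither a binding site nor a cause. How the motifs relate to the size of a gene's change was not tested.

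In HepG2, all 47 tested genes fell with PKF118-310 at 0.2 uM, from the kinases of mitotic entry to the proteins of cytokinesis. The median log2 fold change was -2.74, which left 15% of the vehicle level, and the genes ranged from -3.46 to -1.09. All 47 were called lower at an adjusted p under 0.05 (edgeR quasi-likelihood test, Benjamini-Hochberg adjustment over the 14111 genes tested), against 36.1% of all tested genes. All 47 were lower by at least 2-fold, against 12.6% of all tested genes. In all 47 the 3 treated libraries lay below the 3 vehicle libraries, against 36.9% of all tested genes.

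Among the genes of mitotic entry, CDK1 was at 121 CPM in each of the 3 HepG2 vehicle libraries and at 16.7, 14.8 and 14.7 CPM with 0.2 uM PKF118-310. The groups were far apart, and the log2 fold change was -2.97 ± 0.053 (SE, n = 3 per group), with adjusted p = 6.34e-33. FOXM1, which encodes the activator of many of these genes, went from 62.9, 60.4 and 63.9 CPM to 8.11, 8.61 and 6.28 CPM, a log2 fold change of -3.02 ± 0.09. CCNB2, the cyclin B2 gene whose promoter is shown above, stood at 52.8, 49.4 and 49.6 CPM in vehicle and at 8.06, 7.71 and 6.81 CPM with the inhibitor. Every inhibitor library of these genes was below every vehicle library by a wide margin. The smallest fall of the 8 entry genes was that of AURKA, the centrosomal Aurora kinase, at -2.01 ± 0.04.

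Among the genes of chromosome structure, MKI67, which encodes the coat protein of mitotic chromosomes known as Ki-67, stood at 261, 234 and 240 CPM in vehicle and at 25.2, 18.4 and 23.1 CPM with 0.2 uM PKF118-310. With KIF20A, its log2 fold change of -3.46 ± 0.058 was the lowest of the 47 (adjusted p = 9.25e-34). TOP2A, the topoisomerase that untangles sister DNA, was at 733, 696 and 725 CPM in vehicle and at 74.8, 67.5 and 73 CPM with the inhibitor, a log2 fold change of -3.32 ± 0.037. The condensin subunit SMC2 kept more of its level, at 82.3, 85.7 and 86.4 CPM in vehicle and 21, 23 and 23.6 CPM with the inhibitor. Its groups were still separate, with a log2 fold change of -1.91 ± 0.055.

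All 8 kinetochore and centromere genes fell, with a median log2 fold change of -2.93. SPC25, a subunit of the NDC80 complex that grips microtubules, was at 24.3, 25.6 and 23.7 CPM in vehicle and at 2.59, 2.45 and 1.9 CPM with the inhibitor, a log2 fold change of -3.41 ± 0.12. Its partners NDC80, NUF2 and SPC24 had log2 fold changes of -2.91, -2.96 and -3.15. KNL1, the scaffold that recruits the checkpoint kinase BUB1, had the smallest fall of the 8, at -2.47 ± 0.077. Each of the 4 checkpoint genes fell, BUB1 from 131, 129 and 134 CPM to 22.4, 17.6 and 19.2 CPM (-2.74 ± 0.057), with TTK at -2.84, BUB1B at -2.73 and MAD2L1 at -2.51. In the chromosomal passenger complex, which corrects faulty attachments, BIRC5 had a log2 fold change of -3.06 and the kinase AURKB one of -3.03, while the scaffold INCENP went from 92.8, 83.8 and 86 CPM to 23.8, 24.4 and 21.9 CPM (-1.90 ± 0.055).

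The tested spindle assembly genes had the lowest median of the 8 roles, -2.98, and TPX2, which activates AURKA on the spindle, had the smallest fall among them, at -2.07 ± 0.034. In the anaphase group, CDC20, the activator of the anaphase-promoting complex, went from 127, 127 and 135 CPM to 23.4, 23.3 and 23 CPM (-2.48 ± 0.056), and the separase gene ESPL1 changed by -2.87. Among the genes of the midzone and cytokinesis, the kinesin gene KIF20A went from 93.1, 94.4 and 95.8 CPM to 8.86, 8.41 and 8.52 CPM (-3.46 ± 0.064). ECT2, which activates RhoA at the cell equator, stood apart from the others in size: it was at 117, 112 and 118 CPM in vehicle and at 57.4, 53 and 52.2 CPM with the inhibitor. Its log2 fold change of -1.09 ± 0.046 (adjusted p = 1.2e-21) was the smallest of the 47, and the next smallest were those of PTTG1 and INCENP, each -1.90.

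**Figure D1:**
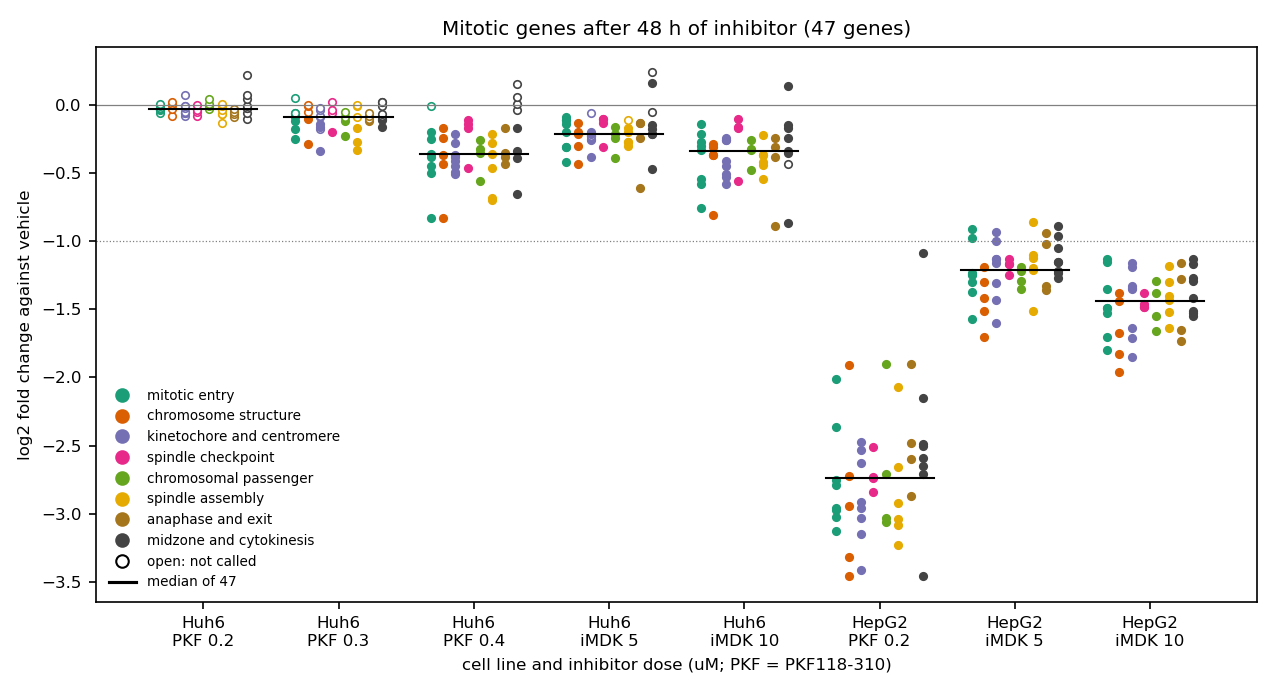
Log2 fold change against the vehicle libraries of the same line (vertical axis) for the 47 tested genes in each treatment (horizontal axis, doses in uM), with 1 point per gene coloured by its role, filled where the gene was called, and a black line at the median. In HepG2 all points are below 0, with medians of -2.74 for PKF118-310 at 0.2 uM, -1.21 for iMDK at 5 uM and -1.44 for iMDK at 10 uM, while no Huh6 point reaches the dotted line at a 2-fold fall.

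At 0.3 uM PKF118-310, HepG2 had 1 library, so its values have no replicate check and no test. All 47 genes were at least 2-fold below the mean of the vehicle libraries, against 13.1% of the genes looked at in the same way. The median log2 ratio was -2.44, from -3.12 for AURKB to -1.49 for ECT2. In 41 of the 47 genes this library lay above all 3 libraries of the 0.2 uM group, in 5 it lay within their range, and only ECT2 lay below, at 41 CPM. The same count was not made over all genes, so it is not read as a trait of these genes. MKI67 was at 31.6 CPM and CCNB2 at 10.4 CPM in that library. The summed level of the 47 genes was 991 CPM at 0.3 uM, against 804 ± 28.7 CPM (SD, n = 3) at 0.2 uM and 5050 ± 85 CPM in vehicle.

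All 47 tested genes also fell in HepG2 with iMDK, compared with the same vehicle libraries. At 5 uM the median log2 fold change was -1.21, with 47 called lower against 26% of all tested genes, and 40 lower by at least 2-fold against 2.63%. At 10 uM the median was -1.44, with 47 called lower against 29% of all tested genes, and all 47 lower by at least 2-fold against 4.44%. The mean of every one of the 47 genes was lower at 10 uM than at 5 uM, and 34 of these steps were called, against 7.52% of all tested genes.

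TOP2A was at 213, 224 and 225 CPM with 5 uM iMDK and at 184, 185 and 184 CPM with 10 uM, log2 fold changes of -1.70 ± 0.033 and -1.96 ± 0.034 from vehicle. MKI67 was at 83.5, 86.2 and 88.6 CPM and then at 69.3, 69.6 and 67.8 CPM. CDK1 was at 40.4, 41.1 and 41.2 CPM and then at 33.5, 35.6 and 35.2 CPM. In these 3 genes the vehicle, 5 uM and 10 uM libraries formed separate steps. HMMR, a microtubule-associated protein of the spindle pole, had the smallest change at 5 uM, from 40.4, 39.5 and 36.8 CPM to 23.3, 21.7 and 19.2 CPM (-0.86 ± 0.072). ECT2, which had the smallest fall with PKF118-310, was at 63.8, 60.4 and 62.5 CPM with 5 uM iMDK and at 50.3, 52.1 and 56.3 CPM with 10 uM, the latter a log2 fold change of -1.13 ± 0.046. Its level with 10 uM iMDK overlapped that with 0.2 uM PKF118-310. AURKA, also at -1.13 ± 0.038 with 10 uM iMDK, shared the smallest change of that dose.

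**Figure D2:**
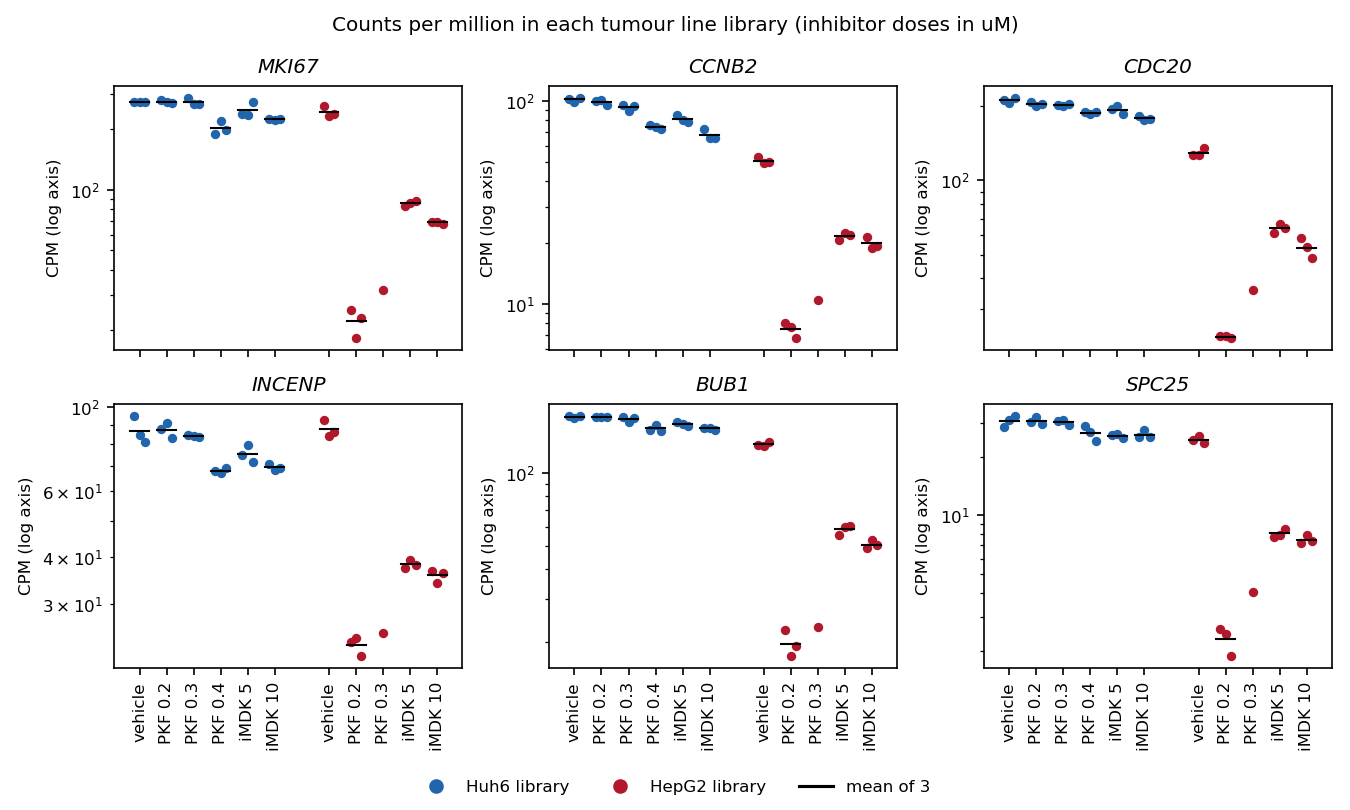
Level in CPM (log axis) of the 6 genes whose promoters are printed, with 1 point per tumour cell library, blue for Huh6 and red for HepG2, and a black line at the mean of 3 libraries; the horizontal axis gives the inhibitor and its dose in uM, and each line was scaled on its own. In HepG2 all treated libraries lie below the vehicle libraries, as for MKI67 at 18.4 to 25.2 CPM with 0.2 uM PKF118-310 against 234 to 261 CPM, while the Huh6 libraries stay within a narrower band.

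In Huh6 the same genes moved little. PKF118-310 at 0.2 uM, the dose that cut them to 15% of vehicle in HepG2, gave a median log2 fold change of -0.03. No gene was called in either direction by edgeR, against 2.24% of all tested genes called in either direction. At an unadjusted p under 0.05, 4 genes were lower and 0 higher, against 902 and 988 of the 15029 tested genes. DESeq2 called 1 of the genes lower, against 143 of 9467 genes. MKI67 was at 275, 274 and 274 CPM in vehicle and at 281, 274 and 270 CPM with 0.2 uM, and the 2 groups overlapped.

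At 0.3 uM, 18 genes were called lower and 0 higher, against 13.5% of all tested genes called lower, with a median of -0.09. The largest of these changes were those of CENPA, the centromeric histone (-0.34 ± 0.055), HMMR (-0.33 ± 0.042) and TOP2A (-0.29 ± 0.022). CENPA was at 49.7, 54.7 and 58.8 CPM in vehicle, at 55.7, 55.2 and 60.4 CPM with 0.2 uM and at 43.1, 43.6 and 42.3 CPM with 0.3 uM, so that all its 0.3 uM libraries were below the other 2 groups. From 0.2 to 0.3 uM, 13 genes were called lower against 9.75% of all tested genes, and 1 higher against 11.5%. The gene called higher in that step was CDK1, at 186, 184 and 188 CPM with 0.2 uM and 196, 196 and 211 CPM with 0.3 uM (0.11 ± 0.03, adjusted p = 0.0046), and without the third library of the 0.3 uM group it was not called.

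At 0.4 uM, 42 of the 47 genes were called lower and 0 higher, against 27.9% of all tested genes called lower. The median was -0.36, or 78.1% of the vehicle level, the range was -0.83 to 0.15, and no gene reached a 2-fold fall. In 41 genes the 3 treated libraries lay below the 3 vehicle libraries, against 30.1% of all tested genes. From 0.3 to 0.4 uM, 38 genes were called lower and 0 higher, against 19.2% of all tested genes called lower. The mean was lower at each dose than at the one before in 28 of the 47 genes and was lowest at 0.4 uM in 42. These 2 counts were not made over all genes.

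TOP2A showed the dose series most clearly. Its level was 706, 708 and 716 CPM in vehicle, 681, 669 and 669 CPM with 0.2 uM, 574, 595 and 573 CPM with 0.3 uM, and 399, 397 and 398 CPM with 0.4 uM. No library overlapped those of another dose, and the log2 fold change at 0.4 uM was -0.83 ± 0.023 (adjusted p = 1.33e-30). CDC25C, the phosphatase that activates CDK1, had the same log2 fold change, -0.83 ± 0.044, but at 71.5, 72.1 and 69.4 CPM its 0.2 uM libraries overlapped the vehicle libraries of 70.7, 71 and 72.7 CPM. It was at 59.8, 60.5 and 60.2 CPM with 0.3 uM and at 40.8, 37.9 and 41.6 CPM with 0.4 uM. Next in size were ASPM (-0.70 ± 0.035) and HMMR (-0.68 ± 0.044), both spindle pole proteins, and KIF20A (-0.65 ± 0.03).

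The 5 genes that were not called at 0.4 uM were CDK1 and 4 of the 8 midzone and cytokinesis genes. CDK1 was at 196, 193 and 195 CPM in vehicle and at 197, 188 and 195 CPM with 0.4 uM (-0.01 ± 0.03). ANLN, the contractile ring scaffold, had a log2 fold change of 0.01 ± 0.03, ECT2 one of -0.04 ± 0.034, CEP55 one of 0.06 ± 0.05 and PRC1 one of 0.15 ± 0.23. In all 5 the treated and vehicle libraries overlapped. Of the other 7 roles, all tested genes but CDK1 were called lower, and the checkpoint genes had the smallest median among those roles, -0.15, with TTK at -0.46 and BUB1B at -0.11.

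iMDK lowered most of the genes in Huh6 by small amounts. At 5 uM, 40 genes were called lower against 18.3% of all tested genes, and 1 was called higher against 17.3%, with a median of -0.21. At 10 uM, 45 were called lower against 26.1% of all tested genes, and 1 higher against 26%, with a median of -0.34 and none past 2-fold. At 10 uM, 44 genes had their 3 treated libraries below the 3 vehicle libraries, against 28.8% of all tested genes. From 5 to 10 uM, 32 genes were called lower and 0 higher, against 12.2% of all tested genes called lower.

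UBE2C, the ubiquitin-conjugating enzyme of the anaphase-promoting complex, changed most at 10 uM. It was at 46.3, 42.3 and 42.3 CPM in vehicle, 29.4, 28 and 28.6 CPM with 5 uM and 23.6, 23.3 and 23.6 CPM with 10 uM, and the 3 groups did not overlap. Its log2 fold change at 10 uM was -0.89 ± 0.057 (adjusted p = 1.92e-17). KIF20A followed at -0.87 ± 0.031, from 282, 292 and 298 CPM in vehicle to 167, 155 and 156 CPM. TOP2A was at 407, 411 and 394 CPM with 10 uM iMDK (-0.81 ± 0.023), near its level with 0.4 uM PKF118-310. CDC25C was at 42.1, 41.3 and 43.4 CPM (-0.76 ± 0.043).

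CEP55, which recruits the machinery that cuts the final bridge between daughter cells, was the gene called higher at both doses of iMDK in Huh6. It was at 45.4, 41.9 and 42.7 CPM in vehicle, 47.9, 49.8 and 48.1 CPM with 5 uM and 46.2, 50.6 and 46.3 CPM with 10 uM. Every treated library lay above every vehicle library, but the change was small, with log2 fold changes of 0.16 ± 0.049 (adjusted p = 0.00622) and 0.14 ± 0.049 (adjusted p = 0.0155). At 10 uM the call was lost without the second or the third vehicle library or without the second treated library. In HepG2 the same gene fell, from 47.4, 43.6 and 48.2 CPM to 21.2, 16.6 and 19.7 CPM with 10 uM (-1.27 ± 0.07). At 10 uM in Huh6 the gene not called in either direction was PRC1, at -0.43 ± 0.24.

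The vehicle libraries of the 2 lines differed before any inhibitor. Of the 47 genes, 35 were called lower in HepG2 than in Huh6 and 4 higher, against 41.3% and 38.1% of the 16321 genes tested across both lines, with a median of -0.48. The widest of these differences were FOXM1, at 60.1 to 63.2 CPM in HepG2 and 195 to 208 CPM in Huh6 when both lines were scaled together (-1.71 ± 0.048), CDC25C (-1.70 ± 0.053), ESPL1 (-1.67 ± 0.046) and KIF20A (-1.65 ± 0.035). The 4 genes higher in HepG2 were PLK1, the Polo kinase (0.81 ± 0.033), UBE2C (0.76 ± 0.055), SPC24 (0.70 ± 0.087) and BIRC5 (0.15 ± 0.035). For TOP2A the difference was -0.02 ± 0.027 and was not called. Scaled within each line, the summed level of the 47 genes was 6790 ± 61.1 CPM (SD, n = 3) in Huh6 vehicle and 5050 ± 85 CPM in HepG2 vehicle. With 10 uM iMDK it was 5170 ± 52.9 CPM in Huh6 and 1780 ± 28.9 CPM in HepG2.

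The difference in response between the lines was tested as an interaction in a fit of all the tumour groups with 3 libraries. With 0.2 uM PKF118-310, all 47 genes had a lower log2 fold change in HepG2 than in Huh6, against 26.1% of all tested genes, with a median difference of -2.71. The difference ran from -3.45 ± 0.075 for MKI67 to -1.02 ± 0.056 for ECT2. With 5 uM iMDK it was called for 47 genes, against 16.5% of all tested genes, with a median of -0.98, and ran from -1.46 ± 0.051 for CDK1 to -0.55 ± 0.08 for HMMR. With 10 uM iMDK it was called for 46 genes, against 20.1% of all tested genes, with a median of -1.05, and ran from -1.63 ± 0.052 for CDK1 to -0.61 ± 0.083 for HMMR among those called. The gene not called there was PRC1 (-0.71 ± 0.35, adjusted p = 0.105).

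The order of the genes within a response was only loosely shared between the lines. Across the 47 genes, the log2 fold changes of HepG2 and Huh6 had a Pearson r of 0.34 and a Spearman rho of 0.30 with 5 uM iMDK, and an r of 0.30 and a rho of 0.21 with 10 uM. With 0.2 uM PKF118-310 r was 0.06 and rho 0.14. These are descriptions over genes, which are not independent and share the libraries of their line. CDK1 shows the difference in order. With 10 uM iMDK it was among the genes that changed least in Huh6 (-0.14 ± 0.03) and among those that changed most in HepG2 (-1.80 ± 0.047).

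**Figure D3:**
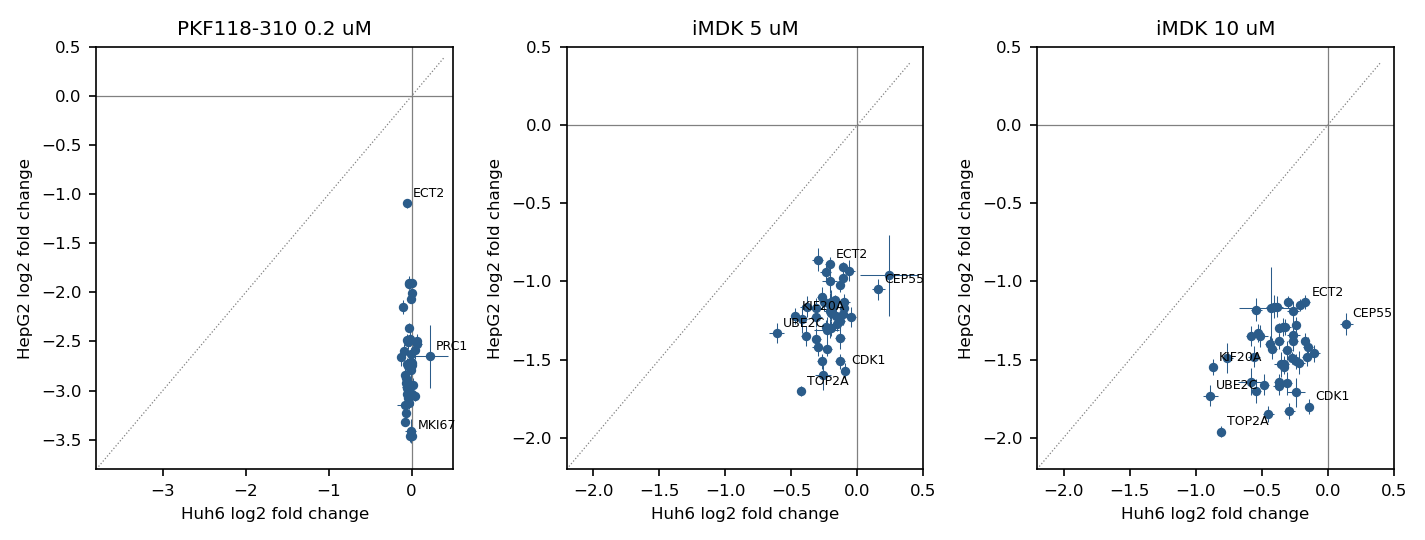
Log2 fold change in HepG2 (vertical axis) against that in Huh6 (horizontal axis) for the 47 genes, with 1 point per gene, standard errors as bars and a dotted line where the 2 are equal, for PKF118-310 at 0.2 uM and iMDK at 5 and 10 uM. All points lie below the dotted line, and with PKF118-310 they spread from -3.46 to -1.09 in HepG2 while staying near 0 in Huh6.

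Other genes of the cell cycle were read from lists chosen by function, and no test of a difference between lists was run. In HepG2 with 0.2 uM PKF118-310, 36.1% of all tested genes were called lower and 35.9% higher, with a median of -0.01. All 28 tested genes of DNA replication fell, with a median of -2.15, RRM2 of ribonucleotide reductase among them at -2.79 ± 0.043. Of 17 other spindle and cytokinesis genes 16 fell and 1 rose, with a median of -2.13 and the kinesin gene KIF18B lowest at -3.28 ± 0.074. Of 26 other kinetochore genes 22 fell and 0 rose, with a median of -1.48. Of 16 tested genes of the anaphase-promoting complex and its partners, 11 fell and 5 rose, with a median of -0.23 and a range from -2.21 to 0.85. The ends of that range were FBXO5, an inhibitor of the complex (-2.21 ± 0.068), and CDC16, one of its subunits (0.85 ± 0.049). The genes of cohesin and condensin that are not in the main group had a median of -0.61, with 10 lower and 1 higher of 14.

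In Huh6 with 0.4 uM PKF118-310, 27.9% of all tested genes were called lower and 28.9% higher, with a median of -0.01. Of the other spindle and cytokinesis genes, 15 of 17 were called lower and 0 higher, with a median of -0.38. Of the 28 replication genes, 13 were called lower and 5 higher, with a median of -0.03. Of the 26 other kinetochore genes, 15 were called lower and 2 higher, with a median of -0.18. With 10 uM iMDK in Huh6, 21 replication genes were called lower and 2 higher, with a median of -0.19, and 16 of the 17 other spindle and cytokinesis genes were called lower, with a median of -0.29, where 26.1% of all tested genes were called lower and 26% higher. In HepG2 with 10 uM iMDK all 28 replication genes and all 17 other spindle and cytokinesis genes fell, with medians of -1.49 and -1.24, where 29% of all tested genes were called lower and 29.9% higher.

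CDKN1A, MYBL2 and E2F4 were read by name from a list of 21 tested genes of cell cycle transcription. In HepG2 with 0.2 uM PKF118-310, 16 of the 21 were called lower and 3 higher, against 36.1% and 35.9% of all tested genes. Their median was -0.46, with E2F1 at -2.72 ± 0.053 and E2F2 at -2.59 ± 0.09. In Huh6 with 0.4 uM, 9 were called lower and 5 higher, against 27.9% and 28.9%, with a median of -0.01. CDKN1A encodes the inhibitor p21, which holds cyclin-dependent kinases and keeps the repressive MuvB complex in place. In HepG2 it rose from a mean of 183 CPM to 1030 CPM with 0.2 uM PKF118-310 (2.49 ± 0.031), and to 400 and 437 CPM with 5 and 10 uM iMDK (1.13 ± 0.031 and 1.26 ± 0.031). In Huh6 it rose from 146 CPM to 173, 215 and 277 CPM with the 3 doses of PKF118-310 (0.24, 0.55 and 0.92) and to 221 and 262 CPM with iMDK (0.60 and 0.84). Its rise at 0.2 uM PKF118-310 in Huh6 was called, while none of the 47 mitotic genes was called there by edgeR. All tumour libraries were taken at 48 h, so the order of these changes cannot be read. The part of CDKN1A in the changes of the mitotic genes was not tested. MYBL2 fell in HepG2 from 315 CPM to 34.3 CPM with PKF118-310 (-3.19 ± 0.047) and to 111 and 90.4 CPM with iMDK. In Huh6, MYBL2 was at 466 CPM in vehicle and 450, 455 and 484 CPM with the doses of PKF118-310, none of them called, and fell to 410 and 374 CPM with iMDK (-0.19 and -0.32). E2F4 had log2 fold changes of -0.09 to -0.07 in HepG2 and of 0.36 and 0.30 at the highest doses of PKF118-310 and iMDK in Huh6.

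**Figure D4:**
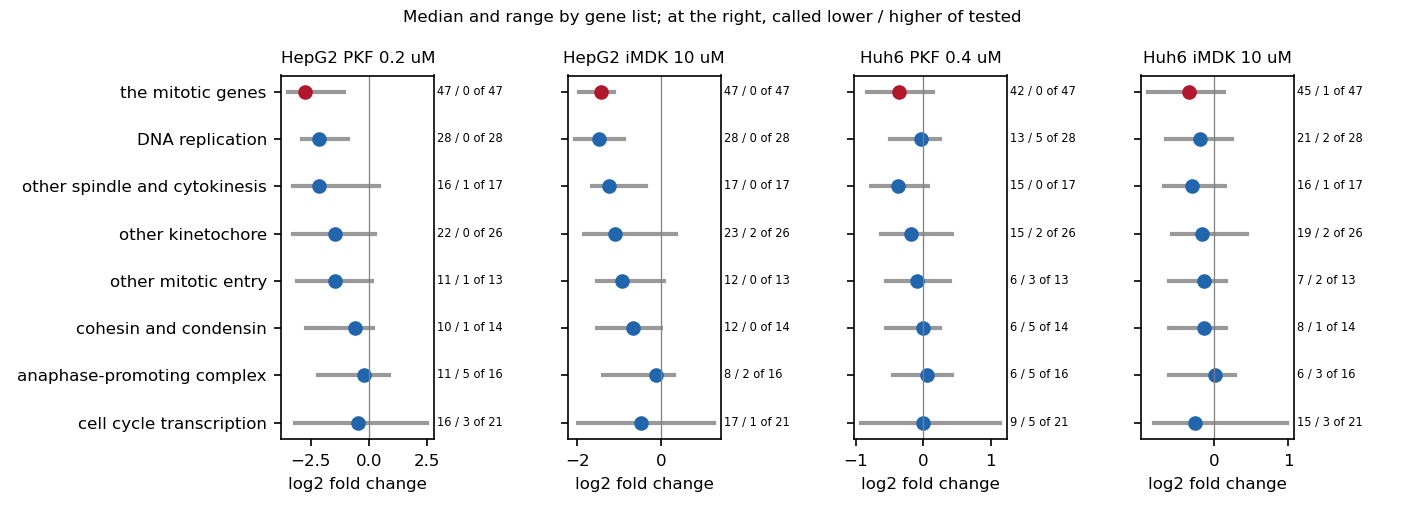
Median (point, red for the mitotic genes and blue for 7 other lists of cell cycle genes) and range (grey line) of the log2 fold change against vehicle, in HepG2 and Huh6 at the highest replicated dose of each inhibitor, with the counts of genes called lower and higher of those tested. In HepG2 with 0.2 uM PKF118-310 the mitotic genes have a median of -2.74 and the replication genes one of -2.15, while in Huh6 with 0.4 uM the same 2 lists have medians of -0.36 and -0.03.

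Markers of liver tumour cells were read in the same comparisons. In HepG2, 19 of 20 tested markers fell and 1 rose with 0.2 uM PKF118-310 (36.1% and 35.9% of all tested genes), with a median log2 fold change of -2.08, and their summed level was 34900 to 37500 CPM in vehicle and 11700 to 12600 CPM with the inhibitor. With 5 uM iMDK in HepG2, 13 fell and 4 rose, with a median of -0.14, against 26% and 25.6% of all tested genes. With 10 uM, 13 fell and 5 rose, with a median of -0.30, against 29% and 29.9%. In Huh6, 16 of 19 tested markers fell and 3 rose with 0.4 uM PKF118-310 (27.9% and 28.9% of all tested genes), with a median of -1.02, while the sum, 23700 to 24100 CPM in vehicle, was 22100 to 23300 CPM. With 10 uM iMDK in Huh6, 16 fell and 2 rose, with a median of -0.60, against 26.1% and 26% of all tested genes. The part of these changes in those of the mitotic genes was not tested.

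In the macrophages, the 47 tested mitotic genes were measured at a summed 663, 1020 and 995 CPM in THP-1 cells kept alone. The first of these libraries was well below the other 2. Same-numbered macrophage libraries tended to deviate together, with 19 of 21 correlating best with their own number. Counts with the replicate number fitted as a block are therefore given beside the main ones. Co-culture libraries also hold reads from tumour cells. The marker list of liver tumour cells summed to 58.8 to 71.1 CPM in macrophages alone, to 2960 to 3530 CPM with untreated HepG2 and to 180 to 555 CPM with untreated Huh6. From 14 to 18 of these markers, tumour reads were estimated at 7.03 to 8.66% of all reads with untreated HepG2, 3.82 to 5.66% with HepG2 given 5 uM iMDK, 1.51 to 3.31% with HepG2 given 10 uM and 0.418 to 1.69% with untreated Huh6. At the levels these genes have in the tumour lines after 48 h, that is 36.9 to 40% of the reads of the 49 genes with untreated HepG2, 7.09 to 10.2% and 2.13 to 4.74% after the 2 doses of iMDK, and 2.26 to 8.14% with untreated Huh6. With Huh6 given iMDK it is 0.674 to 1.74%. The levels of tumour cells in co-culture were not measured here, so these shares are estimates. Their error is not carried into the tests made after subtraction.

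With untreated Huh6, 10 of the 47 genes rose over macrophages kept alone and 0 fell, against 1.32% of the 15500 tested genes called higher. The median log2 fold change was 0.66. In 43 genes all 3 co-culture libraries lay above the 3 libraries of macrophages alone, against 10.6% of all tested genes. At an unadjusted p under 0.05, 41 genes were higher, against 1103 of the 15500 tested genes. The 10 genes were ASPM (0.99 ± 0.22), ANLN (0.85 ± 0.18), BUB1B (0.81 ± 0.19), MKI67, CENPF and NCAPG (each 0.78), KIF23 (0.76), KIF2C (0.69), CDC20 and INCENP (each 0.66). MKI67 was at 48.7, 80.4 and 79.2 CPM alone and at 127, 125 and 106 CPM with Huh6 (adjusted p = 0.024). The count moved in both directions with the settings and libraries used. It was 25 with DESeq2, which called 310 of 17512 genes higher. It was 37 without the filter on low counts, where 508 of 29546 genes were called higher. With the replicate number of the libraries fitted as a block it was 39, against 633 of the 15500 tested genes called higher. Without the first library of macrophages alone, or without the first Huh6 co-culture library, the count was 0. There 81 of 15872 and 65 of 15858 genes were called higher, and the medians of the 47 were 0.49 and 0.65. Without the second Huh6 co-culture library the count was 4, against 173 of 15888 genes, and without the third 6, against 204 of 15908. Without the second library of macrophages alone the count was 14, against 141 of 15878 genes. When the estimated tumour reads were subtracted, the median was 0.62 and 1 gene, NCAPG, was called (0.74 ± 0.16, adjusted p = 0.0415). In that fit 25 of 15154 genes were called higher.

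With untreated HepG2, the median against macrophages alone was 0.21. AURKA fell, from 47.4, 56.1 and 51.6 CPM to 37.7, 39 and 42.6 CPM (-0.38 ± 0.11, adjusted p = 0.016), and PTTG1, the securin gene, rose from 5.74, 8.74 and 7.71 CPM to 11.4, 16.7 and 11.9 CPM (0.85 ± 0.25, adjusted p = 0.0155). These 2 calls are set against 9.68% of all tested genes called lower and 12% called higher. Without the filter on low counts, 1 gene was called lower and 8 higher, against 1245 and 2066 of 29546 genes. With the replicate number as a block, 1 was called lower and 9 higher, against 2507 and 2611 of the 15500 tested genes. Leaving out single libraries changed the counts to 0 or 1 lower and 0 to 5 higher. The fall of AURKA was not called without the second library of macrophages alone or without the first or second HepG2 co-culture library. The count of genes called higher was 0 without the first library of macrophages alone or the second HepG2 co-culture library. There 1675 of 15872 and 1567 of 15828 genes were called higher. That count was 5 without the first HepG2 co-culture library, against 1671 of 15819 genes. With the estimated tumour reads taken out, the median was -0.24, and 13 genes were called lower, among them AURKA (-0.91 ± 0.12) and KIF4A (-1.55 ± 0.27). None of the 47 was called higher, and 1707 of 15154 genes were called lower and 1482 higher.

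Between the untreated co-cultures, 18 genes were lower with HepG2 than with Huh6 and 0 higher, against 7.55% of all tested genes called lower, with a median of -0.46. CDK1 was at 16.2, 21.8 and 23.2 CPM with HepG2 and at 30.1, 41.8 and 37.1 CPM with Huh6, and the groups did not overlap (-0.83 ± 0.22, adjusted p = 0.0121). BUB1B followed at -0.72 ± 0.19 and CDC20 at -0.70 ± 0.17. The count was 4 without the first HepG2 co-culture library and 5 without the second Huh6 one. There 688 of 15819 and 536 of 15888 genes were called lower. The count was 9 without the first Huh6 co-culture library and 11 without the second HepG2 one. There 903 of 15858 and 534 of 15828 genes were called lower. With the replicate number as a block the count was 37, against 2346 of the 15500 tested genes called lower. All 3 HepG2 co-culture libraries held more estimated tumour reads than any of the 3 with Huh6. After subtraction of these reads the count was 35, against 1466 of 15154 genes called lower, and the median was -0.87.

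Giving iMDK to the tumour cells before co-culture led to no call among the 47 genes by edgeR with the filter on low counts and no replicate block. Without that filter, 1 gene was called higher with HepG2 at 5 uM and 4 with HepG2 at 10 uM, against 73 and 180 of 29546 genes. With HepG2 at 5 uM, 0.0903% of all tested genes were called in either direction and DESeq2 called 0 of the 47. At an unadjusted p under 0.05, 0 genes were lower and 1 higher, against 929 and 575 of the 15500 tested genes. With HepG2 at 10 uM, 3.34% of all tested genes were called and DESeq2 called 0 of the 47. There 12 genes were higher and 0 lower at an unadjusted p under 0.05, against 1140 and 1384 of the 15500. With Huh6 at 5 uM (0.0129% called), 0 genes were higher or lower at that threshold, against 180 and 401 of the 15500, and DESeq2 called 0. With Huh6 at 10 uM (0.0581% called), 1 was lower, against 495 of the 15500, and DESeq2 called 0. The libraries with HepG2 given 5 uM iMDK and with untreated HepG2 deviated together by replicate number. With the number as a block, 1 gene was called there, CDC20 (0.39 ± 0.085, adjusted p = 0.00905), against 193 of the 15500 tested genes called higher. For HepG2 at 10 uM the correlations by number were 0.05, 0.24 and 0.27. The block there gave 8 genes called higher and 0 lower, against 818 and 984 of the 15500 tested genes. With Huh6 the block gave 0 calls at either dose.

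Tumour reads moved with these comparisons, since they were fewer where HepG2 had been given iMDK. After subtraction, 11 genes were called higher with HepG2 given 5 uM iMDK and 25 with HepG2 given 10 uM, compared with untreated HepG2. Here 0 were lower, and 180 and 450 of 15154 genes were called higher. The medians were 0.52 and 0.76, against 0.12 and 0.28 before subtraction. The subtraction took an estimated 36.9 to 40% of the reads of these genes from the untreated HepG2 group. It took 7.09 to 10.2% and 2.13 to 4.74% from the iMDK groups, so the estimate itself raises these differences. The tumour levels used are from lines kept 48 h with iMDK or vehicle, not from cells in co-culture. MKI67 was at 62.7, 92.2 and 92.7 CPM with untreated HepG2, 78.2, 75 and 114 CPM with HepG2 given 5 uM and 102, 106 and 115 CPM with HepG2 given 10 uM. The groups with untreated HepG2 and with HepG2 given 10 uM did not overlap for this gene, while the difference did not pass the test (0.39 ± 0.18, adjusted p = 0.292). With Huh6, where tumour reads were few, subtraction left 0 genes called at either dose.

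**Figure D5:**
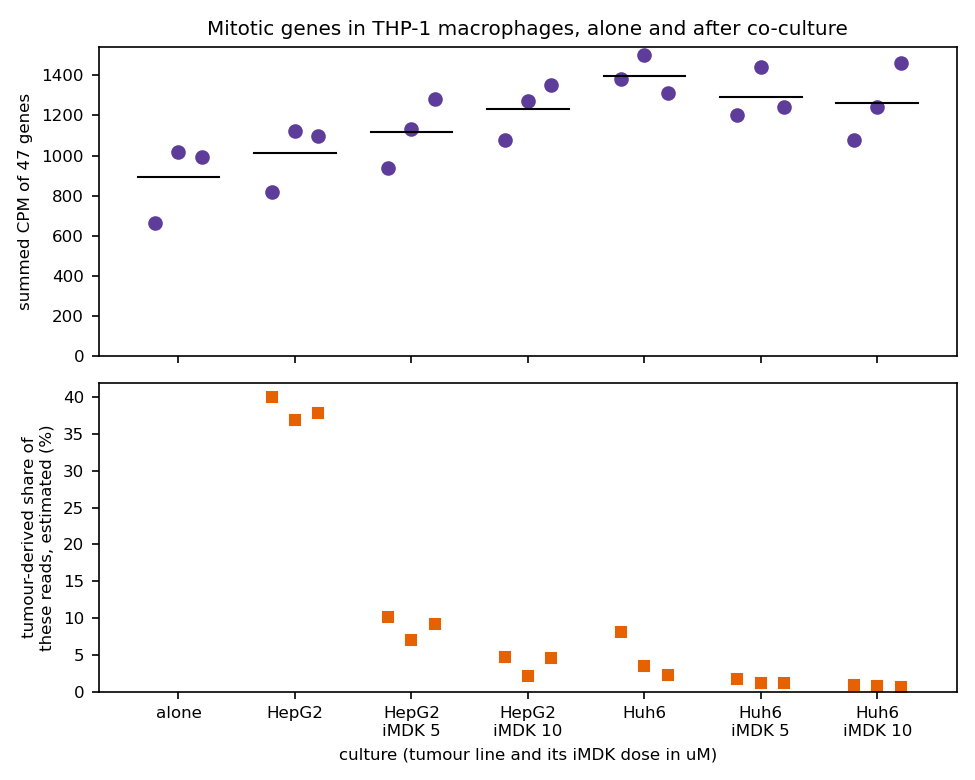
Summed CPM of the 47 tested genes in each THP-1 macrophage library (upper panel, with a black line at the mean of 3) and the estimated tumour-derived share of these reads in percent (lower panel), by culture. Macrophages alone sit at 663 to 1020 CPM and those with untreated Huh6 at 1310 to 1500 CPM, while the estimated tumour share is highest with untreated HepG2, at 36.9 to 40%.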

How the data were processed

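RNA-seq counts per gene were analysed for 52 libraries. The authors deposited raw counts in a table for the tumour lines and a table for the macrophages. Per the submitters' processing notes, STAR 2.7.3a, SAMtools 1.16.1, featureCounts and edgeR 3.36 were used with GRCh38; for the gene annotation used and for strandedness in counting, nothing is stated in the sources used here. Per the labels, NEBNext Ultra II Directional libraries were made from polyadenylated RNA.

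Huh6, HepG2, both lines jointly (for vehicle levels and interactions) and the macrophages were fitted separately in edgeR 4.0.16 (R 4.3.3, limma 3.58.1) with TMM scaling, a filter on low counts by group and the quasi-likelihood test. P-values were adjusted by Benjamini-Hochberg over all genes tested, and a gene was called at 0.05. Levels of the mitotic genes and regulators are CPM of TMM-scaled library sizes within each fit, and marker sums are CPM of total counts. SE is the log2 fold change over the square root of F. The 3-count floor was 0.15 to 0.238 CPM. Tested alternatives were other size factors, no filter, DESeq2 1.42.0, a 2-fold minimum, a replicate block, leaving out libraries, and subtraction of tumour reads. Tumour reads were the median, over tumour markers at 100 CPM or more in the line, of the excess over macrophages alone divided by the level in the line given the same iMDK dose. The code was tested on simulated counts.

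Members and lists were chosen with earlier results of these data known. Named genes were any member and, from each other list, at most 4 called genes with the largest change, plus CDKN1A, MYBL2 and E2F4. Same-numbered macrophage libraries tended to deviate together, with 43 of 63 correlations over 0.1. Numbers were taken as pairs where all 3 correlations of a comparison passed 0.1, as for HepG2 given 5 uM iMDK against untreated HepG2 (0.39, 0.14 and 0.38).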

Additional observations from a re-analysis of the deposited data

Results flagged for a closer look

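The following responses differed between the lines by the interaction test. With 0.2 uM PKF118-310, all 47 genes had a lower log2 fold change in HepG2 than in Huh6, against 26.1% of all tested genes. The difference was -3.45 for MKI67 at the widest and -1.02 for ECT2 at the narrowest. With 5 uM iMDK the log2 fold change was called lower in HepG2 for 47 genes, against 16.5% of all tested genes. The differences ran from -1.46 for CDK1 to -0.55 for HMMR. With 10 uM iMDK it was called lower for 46, against 20.1%, with differences from -1.63 for CDK1 to -0.61 for HMMR. CEP55 fell in HepG2 and rose slightly in Huh6, with differences of -1.20 at 5 uM and -1.38 at 10 uM iMDK. In the macrophages, 18 genes were lower after co-culture with untreated HepG2 than with untreated Huh6, against 7.55% of all tested genes. That count was 4 to 18 when single libraries were left out. It was 37 with the replicate number as a block and 35 after subtraction of tumour reads. No explanation for these differences was tested.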

How the results depend on the processing

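In HepG2 against vehicle, and in the difference between the lines with 0.2 uM PKF118-310, the counts of 47 were 47 under every alternative run, except that 40 passed a 2-fold minimum in HepG2 with 5 uM iMDK. With a 2-fold minimum the count was 0 for each Huh6 comparison with calls, for iMDK at 10 against 5 uM in HepG2, for genes higher in HepG2 than in Huh6 vehicle and for each macrophage comparison with calls; it was 9 for genes lower in HepG2 vehicle, and 23 and 26 for the difference between the lines with 5 and 10 uM iMDK. DESeq2 called 1 gene with 0.2 uM PKF118-310 in Huh6 and 25 in macrophages with Huh6 against alone. Without the filter on low counts, 8 genes were higher with HepG2 and 37 with Huh6 against macrophages alone, and 1 and 4 with HepG2 given 5 and 10 uM iMDK. With the replicate number as a block these counts were 9, 39, 1 and 8, and 37 genes were lower with HepG2 than with Huh6; of the macrophage libraries, 19 of 21 correlated best with their own number, while in the tumour lines the block moved no count by over 1.5 times. With tumour reads subtracted, 13 genes were lower and 0 higher with HepG2 against alone, 1 was higher with Huh6, 35 were lower with HepG2 than with Huh6, and 11 and 25 were higher with HepG2 given iMDK.

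Leaving out single libraries gave in Huh6 13 to 17 genes lower at 0.3 uM, 40 to 42 at 0.4 uM, 10 to 12 lower and 0 to 1 higher from 0.2 to 0.3 uM, 37 to 39 from 0.3 to 0.4 uM, 38 to 42 lower and 1 higher with 5 uM iMDK, 44 to 45 lower and 0 to 1 higher with 10 uM, and 25 to 30 from 5 to 10 uM. It gave 28 to 31 for that step in HepG2, 34 to 35 lower and 4 higher between vehicles, and in macrophages 0 to 1 lower and 0 to 5 higher with HepG2, 0 to 14 higher with Huh6 and 4 to 18 lower with HepG2 than with Huh6. With 0.4 uM PKF118-310 in Huh6, genes that were not called changed sign: PRC1 ranged from -0.03, without the first vehicle library, to 0.34, ANLN from -0.01, without the third vehicle or the second treated library, to 0.02, and CDK1 from -0.02 to 0.01, without the second treated library. The cause of these changes was not tested. Depth limits PRC1, at about 2 CPM. Why SMC4 and NUSAP1 had almost no counts was not tested.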
